A study of Bos taurus with 6 samples.

Results

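The 48 genes described here encode proteins of DNA repair and of the signalling that DNA damage sets off. They are named in a list of gene symbols, and each of the 48 symbols was found in the deposited array table, which holds 26773 transcript clusters (the array's unit for a gene). RNA came from 6 cultures of primary bovine granulosa cells (GC), which were hybridised to 1 array each. There were 3 cultures plated at normal density and 3 plated at high density. Cells of both densities were kept without serum for 9 days in alpha-MEM with FSH, IGF-1 and androstenedione. The labels state density as the difference, which by the methods is the number of cells plated per well. The cells had been frozen and were pooled from small to medium follicles of abattoir ovaries, from cows whose cycle status was not recorded. The methods count 6 GC preparations, but the labels do not say whether the replicates of a density were separate pools, so the p-values measure only the spread between these cultures, which may be technical. The comparison asks which repair genes differ in RNA abundance between the densities.

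Cells repair DNA by several routes. Homologous recombination copies an intact sister chromatid to mend a broken one and works after DNA has been replicated, while end joining seals broken ends directly and is open to cells in any phase. The Fanconi pathway removes links between the DNA strands that block replication forks. Mismatch repair corrects errors of the polymerase, base excision removes single damaged bases, and nucleotide excision cuts out bulky lesions. The kinases ATM and ATR report damage to the checkpoint. GC divide in the growing follicle and leave the cell cycle when they luteinize, and many recombination and Fanconi genes are known to be transcribed mainly in cells that replicate DNA.

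Values are log2 signals as deposited. A log2 fold change is the mean at high density minus the mean at normal density, and limma was fitted to all transcript clusters together. A gene is termed called when its fold change (FC) exceeds 1.5 in size and both the p-value and the Benjamini-Hochberg FDR lie below 0.05, the thresholds of the study's methods. Each array had a median between 4.34 and 4.43. The 95th percentile of the 82 reporter control rows, 4.62, is used as the background level. The granulosa markers were detected, all 11 with a group mean above this level, and their summed signal (log2 of the sum) was 12.21 to 12.35 at normal and 12.06 to 12.12 at high density. CYP11A1 was the brightest of the 11 in both groups (means 10.91 and 11.16), and INHBA was the next at normal density (means 10.21 and 8.84). Of the 11, 5 were called lower, FSHR (−2.21), INHA (−2.16), INHBA (−1.37), FOXL2 (−0.65) and CYP19A1. The mean of CYP19A1 was 6.51 at normal density and 3.71, below the level, at high density. HSD17B1 was called higher. Among the markers of other cells, 0 of 7 leukocyte genes exceeded the level, 1 of 6 endothelial genes (VWF), 2 of 5 surface epithelium genes (MSLN and CDH1), 1 of 5 red blood cell genes (HBA) and 1 of 3 theca genes (INSL3). The theca enzyme CYP17A1 was below the level, with means of 2.93 and 2.92. LHCGR, listed with theca, was below it too and was called lower (−1.20). INSL3 was called higher (1.82) and was the brightest of the 3 theca genes, with means of 7.20 and 9.02. HBB was below the level, with means of 3.11 and 3.39. The summed signals of these marker lists in the normal and the high density cultures were 6.19 to 6.24 and 6.20 to 6.37 for leukocytes. They were 6.17 to 6.23 and 6.33 to 6.49 for endothelium and 6.96 to 7.06 and 7.12 to 7.20 for surface epithelium. For red blood cells they were 5.48 to 5.53 and 9.24 to 9.84, and for theca 7.37 to 7.50 and 8.94 to 9.23. The part of these genes in the results was not tested. High density replicate 2 stood farther from the other cultures of its density (median distance 0.16 in log2 signal over all transcript clusters) than replicate 1 (0.12) or replicate 3 (0.11).

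At high density 12 of the 48 repair genes were called lower and 0 were called higher. Of all transcript clusters 3.51% were called lower, 3.97% higher and thus 7.49% in either direction. Of the 13077 transcript clusters with a group mean above the background level 5.86% were called lower and 6.95% higher. The 12 genes were BRCA1, BRCA2, BARD1, BRIP1, RAD51AP1, EXO1 and RMI1 of homologous recombination, FANCD2 and FANCI of the Fanconi pathway, UNG of base excision, XPC of nucleotide excision and XRCC5 of end joining. No gene of mismatch repair or of damage signalling in the list was called. A further 12 genes passed the FDR threshold with a lower signal at high density but an FC below 1.5. This makes 24 lower and 0 higher at any FC, against 10.4% lower and 8.64% higher of all transcript clusters. Among the 13077 transcript clusters above the background level 18.5% were lower at any FC. The count of 24 repair genes was 15 in the methods' t-test, which stands in for the analysis of variance they name and equals it with 2 groups. It was also 15 when replicate 2 or 3 of normal density was left out, and 17 when replicate 3 of high density was. Leaving out replicate 2 of high density gave 31 and put ERCC1 past the FDR threshold as higher. The share of all transcript clusters at any FC in each of these fits is not given here, so these counts cannot be set against it. For the rises, limma gave 1 gene (ERCC1) at an unadjusted p below 0.05. The largest log2 rise was 0.22, below an FC of 1.5, so the methods' t-test, with the same fold changes, could call none.

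**Figure D1:**
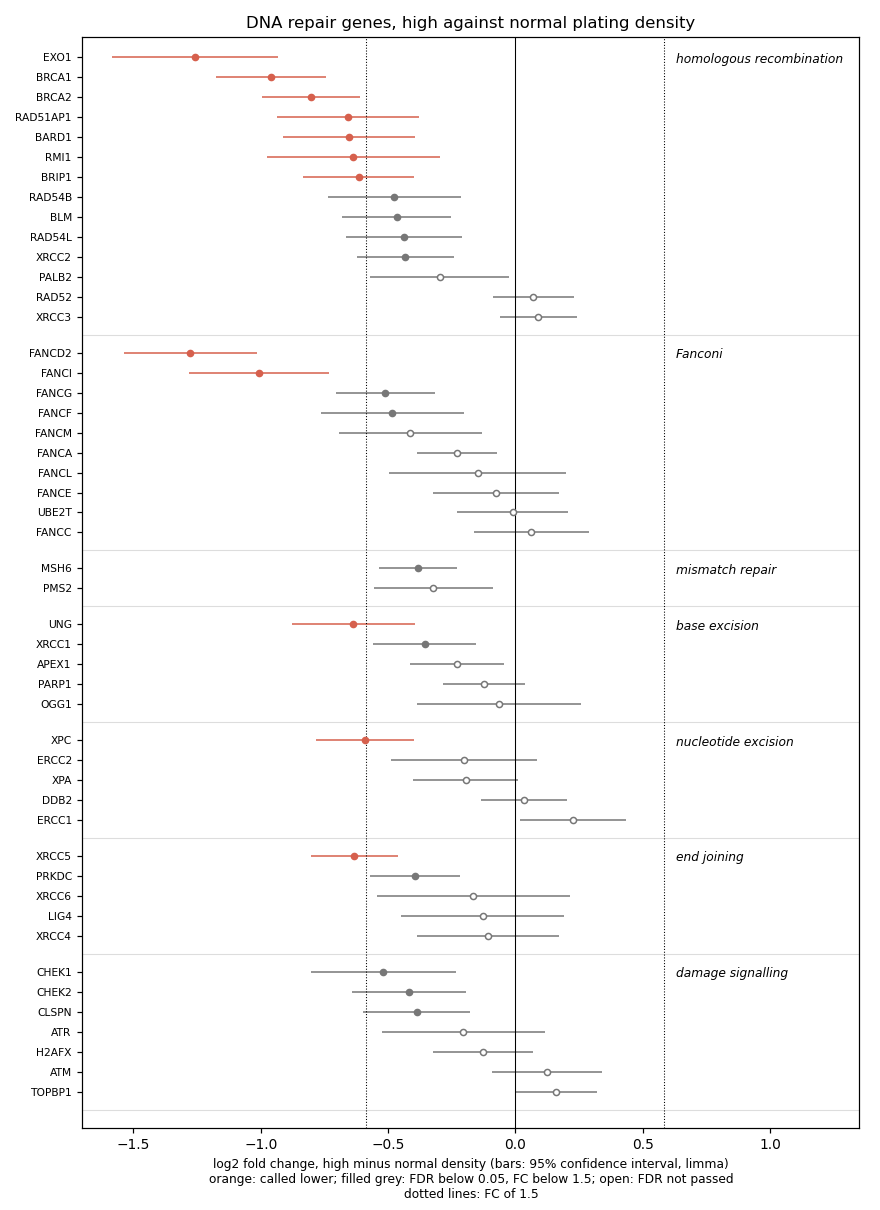
Log2 fold change, high minus normal density, of each of the 48 repair genes by class, with the 95% confidence interval from limma (n = 3 cultures per density). The 12 called genes lie left of the dotted line of FC 1.5, from XPC at −0.59 to FANCD2 at −1.28, and 7 genes have a value above 0.

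The median log2 fold change of the 48 genes was −0.37, beside 0.02 for all transcript clusters and −0.05 for those above the background level. Over the 41 repair genes with a group mean above that level it was −0.23. The classes differed in their counts and medians. In homologous recombination 7 of 14 genes were called lower by limma and 5 by the methods' t-test, with a median of −0.55. The Fanconi class had 2 of 10 in both tests and a median of −0.32. Outside these classes 3 of 24 genes were called in both tests, with a median of −0.20. Each gene was counted in a single class. BRCA1, BRCA2, BRIP1, PALB2 and XRCC2 were placed under recombination and not under Fanconi, and the class counts depend on this choice. The difference between classes was not tested. In 29 of the 48 genes the 3 high density cultures all lay below the 3 normal density cultures, in 3 (XRCC3, ERCC1 and TOPBP1) all lay above, and 16 overlapped. Over all transcript clusters these shares were 19.5% and 17.8%. In 7 genes both group means were at or below the background level. These are EXO1, RAD51AP1, BRIP1, PALB2, FANCF, CHEK2 and CLSPN, so that 9 of the 12 called genes had a group above it.

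The values of the called genes in each culture follow by pathway, beginning with the BRCA1 complex, which directs broken ends to recombination. The log2 signals of BRCA1, a ubiquitin ligase and scaffold, were 5.82, 5.99 and 5.99 at normal density and 4.83, 5.06 and 5.03 at high density. Every high density value lay below every normal density value, and the difference in mean log2 signal was −0.96 (standard error, SE, 0.09, limma's adjusted p = 0.00054). BARD1, the partner that BRCA1 needs as a ligase, had signals of 5.27, 5.38 and 5.47 at normal density and 4.59, 4.64 and 4.94 at high density. The groups did not overlap either, and the log2 fold change was −0.65 (SE 0.11, limma's adjusted p = 0.00615). High density replicate 3 held the highest of the high density signals, and BARD1 was not called with array weights (−0.57). BRIP1, a helicase that binds BRCA1, gave 4.38, 4.27 and 4.38 at normal density and 3.62, 3.90 and 3.66 at high density. All 6 of these signals were below the background level, and their log2 difference of −0.62 (SE 0.09, limma's adjusted p = 0.0038) is given as a difference of signals only. BRIP1 was not called without high density replicate 1 (−0.56) or 3 (−0.58).

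BRCA2, a large protein bound to single-stranded DNA, prepares resected ends for recombination. Its log2 signals were 5.66, 5.64 and 5.82 at normal density and 4.83, 4.89 and 4.99 at high density. The cultures of a density lay within 0.2 of each other and the log2 fold change was −0.80 (SE 0.08, limma's adjusted p = 0.000693). RAD51AP1, which helps to pair strands, had signals of 4.11, 4.40 and 4.54 at normal density and 3.67, 3.80 and 3.61 at high density. None reached the background level, the groups did not overlap and the log2 difference was −0.66 (SE 0.12, limma's adjusted p = 0.00857). The call was lost in the methods' t-test (adjusted p = 0.0608 over all transcript clusters) and without normal density replicate 3 (−0.56). The table holds a pair of transcript clusters for RAD51AP1 with identical values in all 6 cultures, counted here as 1 gene. PALB2, the bridge between BRCA1 and BRCA2, was not called. Its signals were 4.45, 4.76 and 4.65 at normal density and 4.13, 4.47 and 4.36 at high density, which overlap, with a log2 fold change of −0.30 (95% confidence interval −0.57 to −0.02, limma's adjusted p = 0.126).

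EXO1, an exonuclease that trims broken ends for recombination and also serves mismatch repair, had log2 signals of 4.10, 4.52 and 4.61 at normal density and 3.15, 3.05 and 3.26 at high density. All lay below the background level, the groups stood apart by more than 0.8 and the log2 difference was −1.26 (SE 0.14, limma's adjusted p = 0.000948), given as a difference of signals only. RMI1, which works with the helicase BLM to take joined DNA molecules apart, gave 5.32, 5.42 and 5.57 at normal density and 4.63, 5.13 and 4.65 at high density. High density replicate 2 lay close to the normal range. The log2 fold change of RMI1 was −0.64 (SE 0.15, limma's adjusted p = 0.0217), and its call was lost in the methods' t-test (adjusted p = 0.108 over all transcript clusters) and in 4 of the 6 fits that left out a culture, with log2 fold changes of −0.64 without normal density replicate 2, −0.57 without normal density replicate 3, −0.55 without replicate 1 of high density and −0.56 without its replicate 3.

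Of the other recombination genes, BLM, RAD54L, RAD54B and XRCC2 passed the FDR threshold with log2 fold changes between −0.48 (RAD54B) and −0.43 (XRCC2). BLM is the helicase partner of RMI1, RAD54L and RAD54B are motors that act in strand invasion, and XRCC2 is a mediator of strand exchange. In each of these 4 genes all high density signals lay below all normal density signals. BLM, for example, gave 5.42, 5.56 and 5.57 at normal density and 4.999, 5.20 and 4.95 at high density. The log2 fold change of BLM was −0.47 (95% confidence interval −0.68 to −0.25). RAD52, an annealing protein, and XRCC3, another mediator, had values above 0. The signals of RAD52 were 6.91, 6.90 and 6.95 at normal density and 7.01, 6.92 and 7.04 at high density. The intervals of the differences, −0.09 to 0.23 for RAD52 and −0.06 to 0.24 for XRCC3, leave out a fall to the FC threshold.

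**Figure D2:**
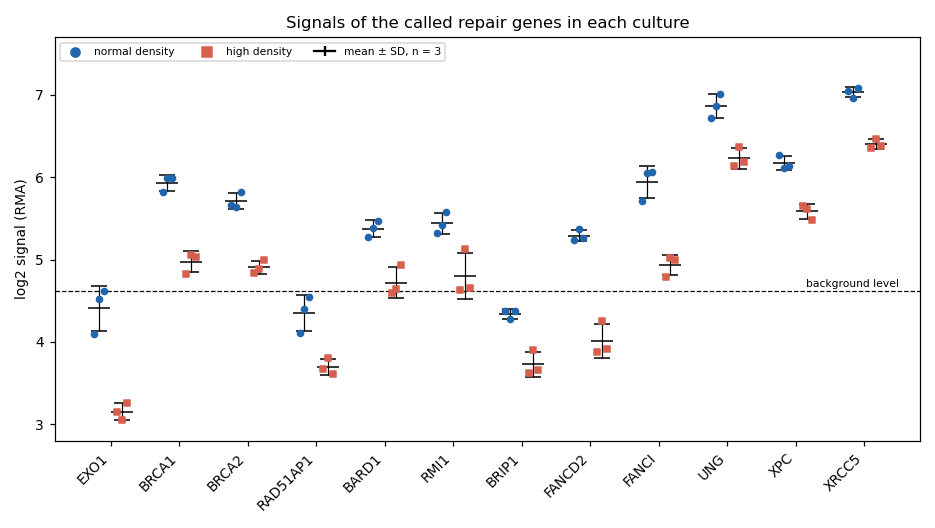
Log2 signals in each culture of the 12 called repair genes, with mean and SD of the 3 cultures per density and the background level as a dashed line. In all 12 genes the high density signals (squares) lie below the normal density signals (circles), and for EXO1, RAD51AP1 and BRIP1 all 6 lie below the dashed line.

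In the Fanconi pathway the called genes were those of the complex that is ubiquitinated when a fork stalls, FANCD2 and FANCI. The log2 signals of FANCD2 were 5.24, 5.37 and 5.26 at normal density and 3.88, 4.25 and 3.91 at high density. The groups did not overlap, and the difference in log2 signal was −1.28 (SE 0.11, limma's adjusted p = 0.000351). All high density signals of FANCD2 were below the background level, and against that level the normal density mean of 5.29 was at least 1.59-fold higher. FANCI gave 5.71, 6.05 and 6.06 at normal density and 4.79, 5.02 and 4.99 at high density, all above the background level. Its log2 fold change was −1.01 (SE 0.12, limma's adjusted p = 0.00119), and the groups stood apart.

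The listed genes of the core complex, a ubiquitin ligase that acts on FANCD2 and FANCI, showed smaller differences. FANCB, a core subunit outside the list, was called lower and is described with the other repair genes. FANCG had signals of 5.01, 5.25 and 5.16 at normal density and 4.61, 4.69 and 4.60 at high density. The difference of −0.51 (95% confidence interval −0.71 to −0.31, limma's adjusted p = 0.00544) passed the FDR threshold only. The same was true of FANCF, at −0.48, whose signals were all below the background level. FANCA, FANCE, FANCC and the catalytic subunit FANCL passed neither threshold in limma, with log2 fold changes of −0.23, −0.08, 0.06 and −0.15. The groups of FANCA did not overlap (limma's adjusted p = 0.0527), and FANCA passed the FDR threshold in the methods' t-test (adjusted p = 0.0331). Without high density replicate 2, which held the highest FANCL signal, FANCL was at −0.32 and passed the FDR threshold (limma's adjusted p = 0.0253). For FANCM, the translocase that brings the core complex to DNA, the value was −0.41 (limma's adjusted p = 0.0517) and the groups did not overlap. UBE2T is the conjugating enzyme that supplies the ubiquitin for FANCD2 and FANCI. Its signals of 5.56, 5.67 and 5.63 at normal density and 5.46, 5.76 and 5.60 at high density overlapped, and the log2 fold change was −0.01 (95% confidence interval −0.23 to 0.21).

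Mismatch repair is represented by MSH6, a subunit of the MutS complex that recognises the mismatch, and by PMS2, the nuclease subunit of the MutL complex. The log2 signals of MSH6 were 7.53, 7.54 and 7.53 at normal density and 7.10, 7.21 and 7.14 at high density. The normal density replicates were the tightest of the list, and a log2 fold change of −0.38 (95% confidence interval −0.54 to −0.23, limma's adjusted p = 0.00685) passed the FDR threshold but not that of FC. PMS2 had a normal density mean of 5.70 ± 0.10 and a high density mean of 5.37 ± 0.15 (SD, n = 3), its groups did not overlap, and it did not pass the FDR threshold (limma's adjusted p = 0.0636). Both genes had an unadjusted p below 0.05 in limma. In the methods' t-test MSH6 passed the FDR threshold (adjusted p = 0.00934) and PMS2 did not (adjusted p = 0.147). Their fold changes are the same in both tests and below 1.5, so neither test could call them.

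In base excision the uracil glycosylase UNG, which removes uracil from new DNA, was the called gene. Its log2 signals were 6.71, 6.86 and 7.01 at normal density and 6.13, 6.37 and 6.18 at high density, with a log2 fold change of −0.64 (SE 0.10, limma's adjusted p = 0.00527) and no overlap. Without normal density replicate 3, the highest of its group, the value of UNG was −0.56 and it was not called. XRCC1, the scaffold of single-strand break repair, passed the FDR threshold with −0.36 (95% confidence interval −0.56 to −0.15). The endonuclease APEX1 had signals of 9.36, 9.27 and 9.34 at normal density and 9.00, 9.20 and 9.08 at high density, PARP1, the sensor of strand breaks, means of 8.21 and 8.09, and the oxoguanine glycosylase OGG1 means of 5.75 and 5.69. None of these 3 genes passed the FDR threshold, and their log2 fold changes were −0.23, −0.12 and −0.06. The sign of OGG1 turned when high density replicate 2 was left out (0.08).

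In nucleotide excision the called gene was XPC, the sensor of helix distortions across the genome. Its log2 signals were 6.27, 6.11 and 6.14 at normal density and 5.65, 5.62 and 5.48 at high density. The groups stood apart, and the log2 fold change was −0.59 (SE 0.08, limma's adjusted p = 0.00263). This lies just past the FC threshold of 0.58 on the log2 scale, and the call was lost without normal density replicate 1 (−0.54), without high density replicate 3 (−0.54) and after a second quantile normalization (−0.56). DDB2, which hands ultraviolet lesions over to XPC, gave 5.97, 6.11 and 5.97 at normal density and 6.01, 6.04 and 6.09 at high density. These overlap, with a log2 fold change of 0.03 (95% confidence interval −0.14 to 0.20) that is −0.01 when the arrays are centred on the same median. XPA, which checks the lesion, and ERCC2, a helicase of TFIIH, had values of −0.20 each and overlapping groups. ERCC1, part of the nuclease that makes the incision on the 5′ side, had signals of 5.44, 5.55 and 5.59 at normal density and 5.88, 5.62 and 5.75 at high density. It was the largest positive value of the list at 0.22 (95% confidence interval 0.02 to 0.43), did not overlap, and did not pass the FDR threshold (limma's adjusted p = 0.129).

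End joining starts with the Ku heterodimer of XRCC5 (Ku80) and XRCC6 (Ku70), which grips the broken end. The log2 signals of XRCC5 were 7.04, 6.96 and 7.09 at normal density and 6.35, 6.47 and 6.38 at high density. They stood well apart, with a log2 fold change of −0.63 (SE 0.07, limma's adjusted p = 0.0011), between −0.68 and −0.60 in all alternatives. XRCC6 gave 6.998, 7.01 and 7.15 at normal density and 6.77, 7.27 and 6.62 at high density. High density replicate 2 exceeded all normal density cultures here while the other two lay below them, and the log2 fold change of XRCC6 was −0.17 (95% confidence interval −0.54 to 0.21). Without that culture it was −0.36 and passed the FDR threshold (limma's adjusted p = 0.0256). PRKDC, the kinase that Ku recruits, passed the FDR threshold with a log2 fold change of −0.39 (95% confidence interval −0.57 to −0.22, limma's adjusted p = 0.0105). The ligase LIG4 and its partner XRCC4 passed neither threshold, at −0.13 and −0.11, and for both of them high density replicate 2 was again the highest of the 6 cultures. Without it both stood at −0.24, with limma's adjusted p = 0.0334 for XRCC4 and 0.2 for LIG4.

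Among the 7 genes of damage signalling 0 were called, since none had an FC above 1.5, and 3 had an unadjusted p below 0.05 in limma. These were CHEK1, the kinase downstream of ATR, CHEK2, the kinase downstream of ATM, and CLSPN, the adaptor that presents CHEK1 to ATR. All 3 passed the FDR threshold with lower signals. CHEK1 had signals of 6.02, 6.03 and 6.17 at normal density and 5.42, 5.82 and 5.43 at high density. They did not overlap, and the log2 fold change was −0.52 (95% confidence interval −0.80 to −0.23, limma's adjusted p = 0.024). Without high density replicate 2 it was −0.65 and CHEK1 was called. CHEK2 and CLSPN, at −0.42 and −0.39, were below the background level in every culture. The apical kinases ATM and ATR had log2 fold changes of 0.13 and −0.20 and overlapping groups. ATR overlapped through high density replicate 2 (5.51, against 5.04 and 5.05 in the others), and without it was at −0.36 (limma's adjusted p = 0.0188). TOPBP1, the activator of ATR, gave 7.39, 7.44 and 7.40 at normal density and 7.53, 7.65 and 7.52 at high density. The groups were separate, with a log2 fold change of 0.16 that did not pass the FDR threshold (limma's adjusted p = 0.16). H2AFX, the histone that is phosphorylated around breaks, had means of 6.97 and 6.85.

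High density replicate 2 was often above the other cultures of its density among the repair genes. It held the highest of the 3 high density signals in 31 of the 48 genes (64.6%), while over all transcript clusters this share was 34.6%. Its median difference from the other high density cultures was 0.13 over the 48 genes and −0.03 over all transcript clusters. For the called genes the median log2 difference from the normal density mean was −0.80 in replicate 1, −0.65 in replicate 2 and −0.73 in replicate 3, and in each of these cultures all 12 genes were below the lowest normal density culture. For the 36 other genes this was so for 27, 21 and 25 genes. The called genes were selected by their fall in these same cultures, so the count of 12 adds no separate evidence. The share of all transcript clusters below the lowest normal density culture is not given here for each high density culture. The counts of the repair genes therefore cannot be set against it. Without high density replicate 2, 14 of the 48 genes were called lower, the additional ones being CHEK1 (−0.65) and FANCF (−0.59), and 4.76% of all transcript clusters. At normal density, replicate 1 held the lowest signal of its group in 32 of the 48 genes (66.7%, against 33.9% of all transcript clusters). The SD over cultures was 0.08 for the median repair gene in the normal density group and 0.13 in the high density group, the same as for all transcript clusters at 2 decimals.

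**Figure D3:**
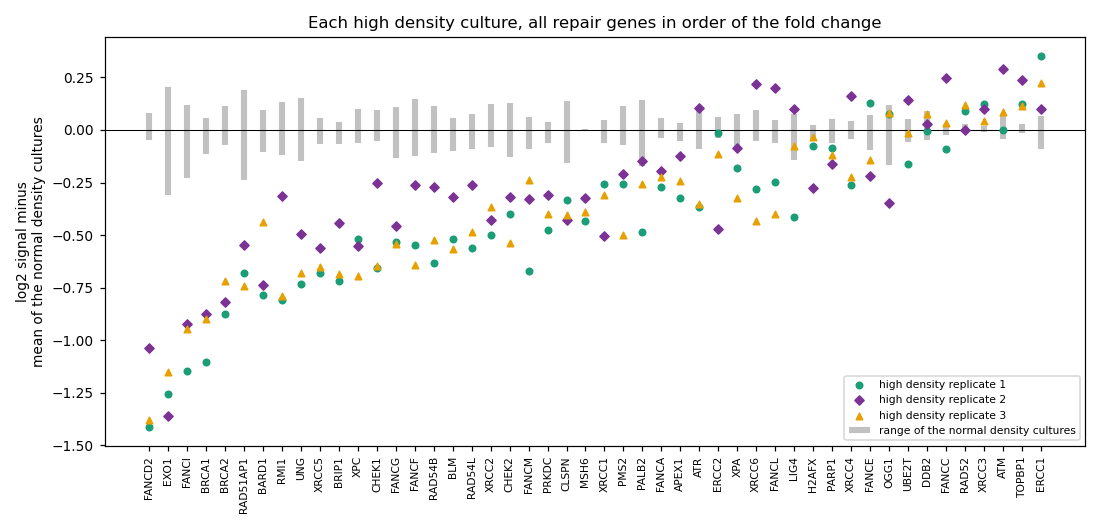
Log2 signal of each high density culture minus the mean of the normal density cultures, for the 48 repair genes in order of their log2 fold change, with the range of the normal density cultures in grey. Replicate 2 (diamonds) is the highest of the 3 high density cultures in 31 genes, and the 12 called genes lie below the grey range in all 3 cultures.

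Other genes of the same pathways were listed from general knowledge, with earlier results of these data known, and 80 were found. Of these 9 were called lower and 0 called higher, 11.2% lower against 3.51% of all transcript clusters. Of the 80 genes 69 had a group mean above the background level, and the called genes FANCB and POLQ did not. Of all transcript clusters above that level 5.86% were called lower. Without the FC threshold 25 of the 80 genes were lower and 1 higher, against 10.4% and 8.64% of all transcript clusters. Of those above the background level 18.5% were lower. At an unadjusted p below 0.05 limma had 3 of the 80 genes higher, none with an FC above 1.5. The methods' t-test called 6 lower, without GEN1, HELQ and RNF168. The median log2 fold change of the 80 genes was −0.20. In recombination 3 of 22 were called, GEN1, MMS22L and HELQ. GEN1, a nuclease that resolves Holliday junctions, fell by 0.99 on the log2 scale, with all high density signals below the background level, and against that level its normal density mean was at least 1.22-fold higher. MMS22L and HELQ, which act at stalled forks, fell by 0.77 and 0.62 on the log2 scale. In the Fanconi class 2 of 9 were called, the core subunit FANCB, with all signals below the background level, and REV3L, the catalytic subunit of the translesion polymerase zeta, whose mean went from 7.81 ± 0.04 to 7.02 ± 0.10 (SD, n = 3).

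Of the end joining genes 3 of 7 were called lower. TP53BP1, which shields broken ends from resection, had log2 signals of 5.89, 5.98 and 5.92 at normal density and 5.18, 5.24 and 5.07 at high density, and RIF1, its effector, 7.50, 7.47 and 7.51 against 6.92, 6.99 and 6.77. Neither gene overlapped, and their log2 fold changes were −0.77 (limma's adjusted p = 0.00056) and −0.60 (limma's adjusted p = 0.00204). POLQ, the polymerase of end joining by microhomology, had a log2 difference of −1.17, with all signals below the background level. RNF168, the ubiquitin ligase that TP53BP1 recruitment needs, was the called gene of the 12 in damage signalling, at −0.70 (SE 0.17, limma's adjusted p = 0.0291). Mismatch repair (5 genes), base excision (14 genes) and nucleotide excision (11 genes) had 0 calls by limma and by the methods' t-test. At an unadjusted p below 0.05 in limma they had 1, 3 and 4 genes lower and 1, 0 and 1 higher. The share of all transcript clusters at this p is not given here.

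Among genes whose proteins work as partners some had log2 fold changes of like size and others did not. FANCD2 and FANCI were both called, as were TP53BP1 and RIF1, and the values were close for XRCC4 and LIG4 (−0.11 and −0.13) and for RAD54L and RAD54B (−0.44 and −0.48). In the MutS family MSH3, which recognises larger loops than MSH6, gave 6.52, 6.55 and 6.58 at normal density and 6.76, 6.78 and 6.80 at high density. MSH3 was thus higher in every high density culture, with a log2 fold change of 0.23 (limma's adjusted p = 0.0441) that passed the FDR threshold only. The log2 fold change of XRCC5 minus that of XRCC6 was −0.47 ± 0.17 (SE), which was −0.31 without high density replicate 2, and that of XPC minus that of DDB2 was −0.62 ± 0.12. All pairs named here, alike or not, were chosen after their values were seen, and not every pair of partners is given. Differences between partners were not tested. USP1 and WDR48, which take the ubiquitin off FANCD2 and FANCI, had log2 fold changes of −0.42 (limma's adjusted p = 0.0256) and −0.32 (limma's adjusted p = 0.0558) and were not called.

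**Figure D4:**
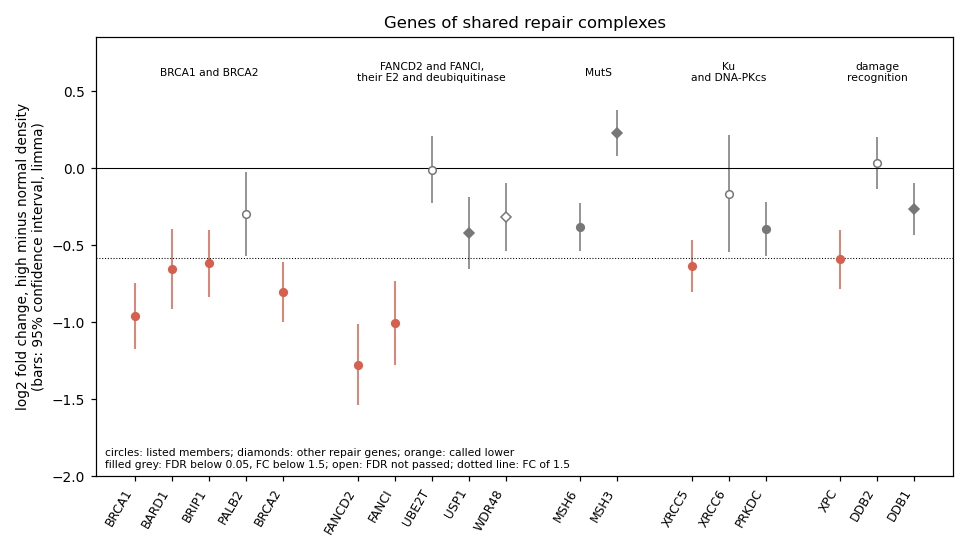
Log2 fold changes, high minus normal density, with 95% confidence intervals from limma (n = 3 cultures per density) for genes whose proteins work together. FANCD2 (−1.28, its high density signals below the background level) and FANCI (−1.01) lie below the dotted line and UBE2T (−0.01) lies near 0, while MSH6 (−0.38) and MSH3 (0.23) lie on either side of 0.

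Genes of the cell cycle were lower at high density as well. Of 26 proliferation genes limma called 18 lower and 0 higher, and the methods' t-test called 16 lower. All 26 had a log2 fold change below 0, with a median of −0.67. The 12 genes of G2 and mitosis had 11 calls and a median of −1.30, and the 14 genes of S phase had 7 calls and a median of −0.60. MKI67, a protein of dividing cells, had log2 signals of 6.85, 6.94 and 6.94 at normal density and 5.14, 5.45 and 5.42 at high density, and TOP2A, the topoisomerase of mitotic chromosomes, 7.54, 7.62 and 7.71 against 5.71, 6.24 and 5.90. Both groups of values stood apart by more than 1 on the log2 scale, with log2 fold changes of −1.57 and −1.67. The mitotic motor CENPE, the kinase CDK1 and its cyclin CCNA2 had log2 fold changes of −1.59, −1.54 and −1.43, with CDK1 above the background level in only 1 of the 3 high density cultures. RRM2, a subunit of ribonucleotide reductase, changed by −1.15 and the transcription factor E2F1 by −0.67. PCNA, the sliding clamp of replication and repair, was not called, at −0.23. High density replicate 2 held the highest high density signal in 14 of the 26 genes, and normal density replicate 1 the lowest normal density signal in 20. The part of proliferation in the differences of the repair genes was not tested. In these bulk samples fewer cells that express a gene and less RNA per cell cannot be told apart.

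**Figure D5:**
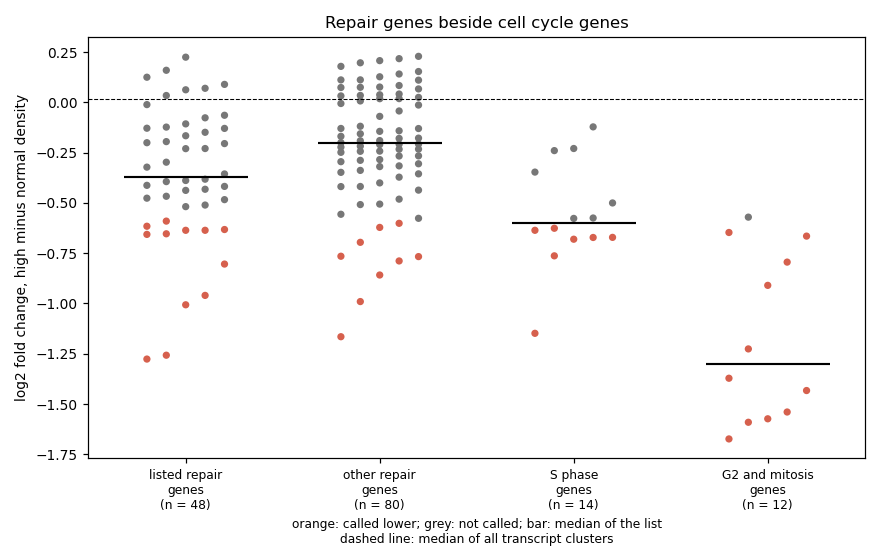
Log2 fold change, high minus normal density, of each gene in 4 lists, with the median of the list as a bar and that of all transcript clusters (0.02) as a dashed line. The medians are −0.37 for the 48 repair genes, −0.20 for the 80 other repair genes, −0.60 for the S phase genes and −1.30 for the G2 and mitosis genes.

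Genes next to the called repair genes were examined with the RefSeq gene order of the cow, in which all 48 symbols were found. Of 23 neighbouring protein-coding genes of the called genes that had a transcript cluster, 1 was called lower, RND2 beside BRCA1 with a log2 fold change of −0.65 (limma's adjusted p = 0.015), and 0 were called higher. FANCD2 lies between FANCD2OS and EMC3, whose log2 fold changes were 0.27 and −0.18, and FANCI between RLBP1 and POLG, with 0.04 and 0.14. None of these 4 was called. Of 53 neighbours of the other repair genes 2 were called lower, CAMK1 beside OGG1 (−0.80) and OSGEP beside APEX1 (−0.61). These counts are near the 3.51% of all transcript clusters called lower.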

How the data were processed

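The authors deposited 1 table of log2 signals, made from Bovine Gene 1.0 ST arrays by RMA in Expression Console, which corrects the background, normalizes between arrays and summarizes each transcript cluster. Their own comparison used Transcriptome Analysis Console 3.0. The genome build is not given in the sources used here, so no coordinates are printed. The table has 0 columns of other samples.

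The signals were used without further scaling. limma 3.58.1 (R 4.3.3) was fitted to all 26773 transcript clusters without covariates, with Benjamini-Hochberg adjustment. Members were matched by gene symbol, and a symbol with several transcript clusters is represented by the brightest. The number of arrays limits the precision. The scripts were tested on simulated data.

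The members and lists were chosen with earlier results of these data known. The other lists come from general knowledge. No row carried the symbols SWI5, SFR1, FAAP24, FAAP100 and PARP2 of the other repair list. All members are named. The plan was to name called genes of the other lists, largest first and at most 8 per list. It was not kept throughout. All 9 called genes of the other repair list are named, and BUB1 (−1.37) and AURKA (−1.23) of the proliferation list were passed over for RRM2 and E2F1. Further genes were chosen after their values were seen. Alternatives were the methods' t-test (their analysis of variance with 2 groups), trended and robust variances, array weights, a block on the replicate number, centring of the arrays on their median, quantile normalization anew, a filter at the background level, no FC threshold, means over the transcript clusters of a symbol and leaving out each culture. Promoters were not analysed here, and some genes and 1 planned gene list are not reported here. Figures were made in Python 3.11.15 with matplotlib 3.10.9.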

Additional observations from a re-analysis of the deposited data

How the results depend on the processing

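The count of 12 repair genes called lower was between 9 and 12 under the other tests, scalings and filters, and 9 to 14 when 1 culture was left out. BRCA1, BRCA2, EXO1, FANCD2, FANCI and XRCC5 were called in every alternative in which they were fitted, while the other 6 called genes were lost in 1 to 5 alternatives, RMI1 most often. Of the 36 genes not called, 34 were not called at FC above 1.5 under any alternative, and CHEK1 (also with array weights, −0.61) and FANCF were. Without the FC threshold the counts were 24 repair genes and 25 other repair genes lower and 1 other repair gene higher. Of all transcript clusters 10.4% were lower and 8.64% higher. The count of 24 was 15 to 31 over the alternatives, for which the share of all transcript clusters is not given here. The median log2 fold change of the repair genes was −0.23 when only the 41 genes above the background level were kept, and −0.38 to −0.33 when 1 culture was left out. The sign of genes near 0 turned for OGG1 with array weights (0.038), for DDB2 with median centring (−0.0095) and for UBE2T with a second quantile normalization (0.011). With a culture left out the values ranged from −0.089 to 0.064 for UBE2T, −0.24 to 0.012 for LIG4, −0.029 to 0.14 for FANCC and −0.15 to 0.078 for OGG1. The causes were not tested. With the replicate number as a block 12 repair genes were called lower, and no call of the repair genes at FC above 1.5 changed. The numbers were not shown to pair the cultures, since the correlations of the deviations of same-numbered cultures from their group means were 0.05, −0.05 and −0.04. The planned search for promoter motifs, with its alternative, was not run, because no promoter sequence was given. Signals at or below the background level limit the differences of EXO1, RAD51AP1, BRIP1, PALB2, FANCF, CHEK2 and CLSPN.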
